A study of Homo sapiens with 18 samples.

Results

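The comparison of cells given ezetimibe and fenofibrate together with cells given ezetimibe alone covered the 359 genes that the authors' deposited tables list both for ezetimibe against DMSO and for the combination against DMSO, out of 3647 genes listed in any of the 3 tables. RNA was sequenced from Cal51, an established human breast cancer cell line, treated for 8 h with DMSO (the solvent), fenofibrate, ezetimibe or both drugs, with 3 libraries per group. The ezetimibe and combination groups thus shared ezetimibe and differed by fenofibrate, and no dose is given in the labels. The series also has PKM2 knockout cells with a control, not analysed here. The labels do not say whether replicates were grown separately, and the p-values therefore measure the spread between these libraries, which may be technical. The study's title pairs PPARα with NPC1L1, and the question taken up here is what fenofibrate changed in cells that already had ezetimibe.

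Fenofibrate is a fibrate whose active form is an agonist of PPARα, a nuclear receptor that controls genes of fatty acid oxidation, and ezetimibe blocks NPC1L1, a sterol transporter. When unfolded proteins build up in the endoplasmic reticulum, the sensors PERK, IRE1 and ATF6 raise chaperones and degradation factors through XBP1 and ATF6, and PERK raises ATF4 by phosphorylating eIF2α. The ATF4 branch, also reached when amino acids or haem run short, induces amino acid transporters and enzymes, aminoacyl-tRNA synthetases and the factors DDIT3 and ATF3. Cells that lack sterol release SREBP2, which induces the genes of cholesterol synthesis.

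Values are normalised read counts, put on the scale of the combination table, and are given in the order of replicates 1, 2 and 3. A difference is the limma log2 difference of the value plus 1, combination minus ezetimibe, ± SE, and a gene was called at a Benjamini-Hochberg adjusted p under 0.05 over the 359 genes. Taking the smallest step between values of a library as 1 read, these genes held 143714 to 167997 reads per library with DMSO, 272700 to 295772 with ezetimibe and 505055 to 559188 with the combination. Each table lists only genes that the authors called with an absolute log2 fold change above 1 against DMSO. A gene that fenofibrate brought back to within that bound is therefore absent from the 359, and the direction away from DMSO is partly set by how the genes were listed. Of the 472 genes of the ezetimibe table, 113 were outside the combination table, 80 of them higher and 33 lower than DMSO with ezetimibe. Since only called genes are listed, the identity of the line was not checked against its markers. Among 14 markers of endothelial cells, fibroblasts and immune cells, 0 were in both tables. The ezetimibe table alone listed 1 of them, CDH5, and the combination table alone listed 2, all lower than DMSO. Absence from tables of called genes does not show that a marker was not expressed.

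Among the 359 genes that both tables list, those that ezetimibe had raised were mostly higher still when fenofibrate was added. Of the 359, 191 were called higher with the combination than with ezetimibe (53.2%), 36 were called lower (10.0%) and 132 were not called, so that 63.2% were called in either direction, with a median difference of 0.53. All 3 combination libraries lay above all 3 ezetimibe libraries for 211 genes (58.8%) and below them for 44 (12.3%). Among the 287 genes that ezetimibe had raised over DMSO, 190 were called higher (66.2%) and 1 was called lower (0.348%). Among the 72 genes that ezetimibe had lowered, 35 were called lower (48.6%) and 1 was called higher (1.39%). Among the 283 genes with a mean of at least 50, 200 were called (70.7%), 184 higher (65.0%) and 16 lower (5.65%). That mean is over the ezetimibe and combination libraries. A gene can thus pass through the combination alone, and a gene that fell deeply can drop out. The shares at that mean are therefore partly set by the filter. A called difference beyond 1 on the log2 scale was seen in 115 genes upward (32.0%) and in 29 downward (8.08%). The combination was further from DMSO in 225 genes, back towards DMSO in 1 and across DMSO in 1.

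The direction of the smaller differences rests on the authors' scaling, because most of these genes rose. Scaled on the 359 genes alone by median-of-ratios factors, the median difference moved by -0.68, and 86 genes were called higher and 111 lower, against 191 and 36. Of the 227 genes called on the authors' scale, 130 were also called on that one and 192 kept their direction. Median-of-ratios factors assume that most of the 359 genes did not differ. These genes were listed for a change from DMSO and most rose, so the factors move the differences downward by construction. Values on that scale show how far a result depends on scaling and are not a test of its direction. Of the genes described below as higher, NUPR1, XBP1, MANF, ERO1B, CXCL1, CXCL2, IL6, CYP1A1, TIPARP, LOX, VEGFA, SESN2, KLF15, GATA3, STARD4 and LINC02535 were above 0 but not called on that scale. AARS, SARS, WARS, EIF2AK3, SLC6A9, SLC1A4, PCK2, INHBE, CEBPB and ARRDC3 turned negative on it, and WARS, SLC1A4 and PCK2 among them were called lower.

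**Figure D1:**
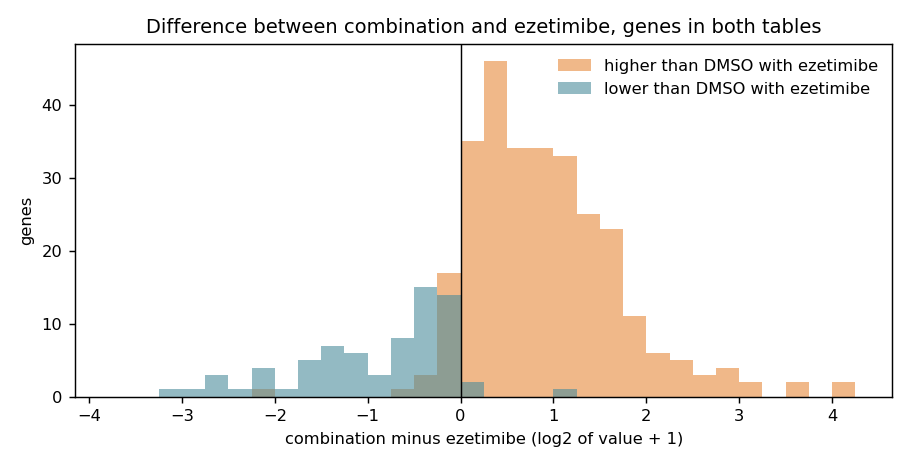
Histogram of the log2 difference between combination and ezetimibe (horizontal axis) by number of genes (vertical axis), for the 287 genes higher (orange) and the 72 genes lower (blue) than DMSO with ezetimibe. The first set lies mostly right of 0, with a median of 0.81, and the second mostly left of 0, with a median of -0.65.

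Replicate 1 of the combination stood apart from the other two in a way that followed gene length. Over the 283 genes with a mean of at least 50, the Spearman correlation between gene length and the library's deviation from its group mean was -0.35 in replicate 1, 0.32 in replicate 2 and 0.22 in replicate 3, against -0.06 to 0.02 in the ezetimibe libraries. In replicate 1 the 95 shortest genes deviated by a median of 0.15 and the 95 longest by -0.01. Its part in each result was not tested further than by leaving it out, and values without it are given for the genes described below whose call it changes or whose called value it moves by over 1.5 times.

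Genes of the unfolded protein response rose together. Of 33 listed genes, 13 were in both tables; 12 were called higher and 0 lower, against 53.2% higher among all 359 genes and 66.2% among the genes that ezetimibe raised, as it did all 13, with a median difference of 0.94. With median-of-ratios scaling 7 were higher and 1 lower, with a median of 0.25. The remaining list genes outside the ezetimibe table included 12 that only the combination table lists, all higher than DMSO. The share of higher genes among all 3149 that only that table lists is not given here, for this or other lists. The 12 thus have no background to be read against.

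HSPA5 (chromosome 9, 125234853 to 125241330, minus strand, hg38) encodes BiP, the main chaperone of the endoplasmic reticulum. Its values were 18422, 17910 and 18778 with DMSO, 50645, 50435 and 50986 with ezetimibe and 150057, 140165 and 141452 with the combination. The 3 groups did not overlap, and each step upward was of similar size. The combination was 2.84-fold over ezetimibe (1.505 ± 0.05, adjusted p = 7.37e-11), and ezetimibe was 2.76-fold over DMSO.

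DNAJB9, a BiP co-chaperone, had 266, 231 and 242 with DMSO, 1043, 1068 and 1049 with ezetimibe and 3334, 3418 and 3354 with the combination (1.68 ± 0.09, adjusted p = 1.25e-08). BHLHA15, a transcription factor of secretory cells also called MIST1, had 5.86, 8.26 and 2.13 with DMSO, 140, 155 and 121 with ezetimibe and 481, 480 and 510 with the combination (1.82 ± 0.31, adjusted p = 0.000191). Both genes were separated in every library, and the combination replicates lay close to each other. SYVN1, the ubiquitin ligase HRD1 of endoplasmic reticulum degradation, rose from 1798, 1790 and 1857 to 5183, 4795 and 4603 (1.42 ± 0.08). HERPUD1, a partner of SYVN1, rose from 4667, 4626 and 4530 to 12639, 10144 and 10477 (1.26 ± 0.09). XBP1, the transcription factor itself, rose less, from 3961, 3786 and 3627 to 7888, 6705 and 6712 (0.90 ± 0.09). Among the rest, HYOU1 and MANF (a BiP-family chaperone and a secreted folding factor) differed by 0.94 and 0.91, and EIF2AK3, which encodes PERK, by 0.64 (-0.06 with median-of-ratios scaling). EDEM2, which helps to mark misfolded glycoproteins for degradation, was the member not called, at 0.13 with a 95% interval of -0.11 to 0.37.

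Genes of protein translocation and vesicle transport also rose: 6 of 51 listed genes were in both tables and all 6 were called higher, against 66.2% of the genes that ezetimibe raised, with a median difference of 0.78. With median-of-ratios scaling 1 was higher and 1 lower, with a median of 0.08. SEC24D, a cargo adaptor of the COPII coat, rose from 3279, 3374 and 3416 to 6514, 8015 and 8020 (1.16 ± 0.10, adjusted p = 3.71e-07). ERO1B, an oxidase for disulfide formation, rose from 147, 107 and 103 to 182, 274 and 274 (1.02 ± 0.20, adjusted p = 0.000708). Its lowest combination library was replicate 1, which was still above every ezetimibe library. FICD, an enzyme that modifies BiP and that is on no list here, was taken up after its values were seen because of its promoter. It rose from 361, 376 and 389 to 1372, 1231 and 1315 (1.80 ± 0.13, adjusted p = 9.42e-08).

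The promoters of these genes were searched for the endoplasmic reticulum stress element, the site bound by ATF6 with NF-Y, spelled CCAAT, then any 9 bases, then CCACG, on either strand in the 250 bases before the RefSeq start. It occurred in 22 of 27305 RefSeq promoters (0.0806%) and in 4 of the 250 promoters matched to the 359 genes (1.60%). The 4 genes were HSPA5, XBP1, FICD and ERO1B, all called higher, as were 137 of the 250 matched genes. Of the 13 unfolded protein response genes, all of them matched, only 2 held the element (15.4%). The stretches that hold it are shown from RefSeq on GRCh38.p14, with the element in capitals (for ERO1B as its reverse complement). They lie at chr9:125241354-125241453 (minus strand), chr22:28800598-28800697 (minus), chr12:108515085-108515184 (plus) and chr1:236282109-236282208 (minus).
HSPA5: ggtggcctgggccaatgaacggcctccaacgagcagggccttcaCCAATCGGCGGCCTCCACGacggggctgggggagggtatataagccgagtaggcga
XBP1: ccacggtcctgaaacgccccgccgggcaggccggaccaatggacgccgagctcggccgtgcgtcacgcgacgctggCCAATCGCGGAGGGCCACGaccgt
FICD: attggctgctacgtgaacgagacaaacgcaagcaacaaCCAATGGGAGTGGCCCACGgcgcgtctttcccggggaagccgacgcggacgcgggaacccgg
ERO1B: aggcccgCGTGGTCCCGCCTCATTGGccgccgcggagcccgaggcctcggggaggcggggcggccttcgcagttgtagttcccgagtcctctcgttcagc
A match is a description of letters and not of binding.

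Genes of the ATF4 and amino acid response differed by widely unequal amounts. Of 42 listed genes, 20 were in both tables, all of them raised by ezetimibe, and 15 were called higher and 0 lower. That is near the 66.2% of all genes that ezetimibe raised, and the median difference of 0.56 is close to the 0.53 of all 359 genes. With median-of-ratios scaling 6 were higher and 4 lower, and the median became -0.14. In 15 of the 20 genes combination replicate 1 was the highest of its group. Without that library 16 were called higher. The combination table alone listed 9 more genes of the list as higher and 1 as lower than DMSO. PHGDH was higher than DMSO in the ezetimibe table and outside the combination table.

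ATF3 (chromosome 1, 212565334 to 212620777, plus strand, hg38), a stress-induced transcription factor, showed the largest rise among all 359 genes. Its values were 61.5, 51.4 and 60.8 with DMSO, 161, 166 and 158 with ezetimibe and 3148, 2684 and 2650 with the combination. All ezetimibe libraries were above DMSO, by 2.79-fold, and the combination was 17.5-fold over ezetimibe (4.11 ± 0.13, adjusted p = 6.06e-11). GDF15, a secreted stress cytokine, had 735, 651 and 616 with DMSO, 2390, 2447 and 2430 with ezetimibe and 17488, 13305 and 14919 with the combination, a 6.29-fold rise over ezetimibe (2.64 ± 0.11, adjusted p = 4e-10). DDIT3, which encodes the pro-apoptotic factor CHOP, had 108, 122 and 141, then 378, 307 and 335, then 2215, 1497 and 1646, a 5.25-fold rise (2.37 ± 0.16, adjusted p = 5.95e-08). No library of one group overlapped with another in these 3 genes. TRIB3, a pseudokinase induced by ATF4 and CHOP, rose from 5040, 5222 and 4968 to 14944, 11289 and 12169 (1.32 ± 0.10). NUPR1, a stress-induced chromatin protein, rose from 503, 403 and 398 to 1355, 928 and 1117 (1.37 ± 0.28, adjusted p = 0.000896).

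Other members differed less. SLC6A9 and SLC1A4, transporters of glycine and of neutral amino acids, differed by 0.42 and 0.28, and PCK2, a mitochondrial enzyme, by 0.32; all 3 were called, and all 3 turned negative with median-of-ratios scaling (-0.28, -0.41 and -0.38). PYCR1, an enzyme of proline synthesis, had 4490, 4637 and 4554 with ezetimibe and 5371, 4316 and 4394 with the combination. Its difference was 0.03 (95% interval -0.23 to 0.30, adjusted p = 0.814), so the groups overlapped. SLC7A11, the cystine transporter, had 5241, 5564 and 5511 with ezetimibe and 4418, 9784 and 8648 with the combination (0.41 ± 0.21, adjusted p = 0.117). Replicate 1 lay below all ezetimibe libraries and the other 2 above them, and without it the difference was 0.76 (adjusted p = 3.7e-06). ALDH1L2, a folate enzyme of mitochondria, and ASNS, asparagine synthetase, were likewise called without it, at 0.60 and 0.51, while PCK2 and INHBE lost their calls, at 0.21 and 0.49. The 3 aminoacyl-tRNA synthetases in both tables, out of 20 listed, were all called higher: AARS by 0.69, SARS by 0.48 and WARS by 0.42. Ezetimibe had raised all 3, and 66.2% of all genes that it raised were called higher. Their median difference of 0.48 was below the 0.53 of all 359 genes. Each of the 3 turned negative with median-of-ratios scaling (-0.011, -0.21 and -0.28).

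An element for ATF4 paired with a C/EBP factor, spelled TGATGNAA on either strand, occurred in 870 of 27305 RefSeq promoters (3.19%), in 12 of the 250 matched here (4.80%) and in 3 of 14 matched genes of the ATF4 list (ATF3, ASNS and CHAC1). Of these 3, ATF3 was called higher and ASNS and CHAC1 were not called. The element was also found before HERPUD1. By call, 6 of 137 matched genes called higher held it (4.38%), as did 0 of 24 called lower and 6 of 89 not called (6.74%). The stretches of ATF3, the gene with the largest rise, and of HERPUD1, shared with the unfolded protein response, are shown with the element in capitals, at chr1:212565167-212565266 and chr16:56931922-56932021, both on the plus strand of GRCh38.p14 from RefSeq.
ATF3: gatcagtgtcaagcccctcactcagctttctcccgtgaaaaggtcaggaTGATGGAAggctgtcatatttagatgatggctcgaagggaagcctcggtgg
HERPUD1: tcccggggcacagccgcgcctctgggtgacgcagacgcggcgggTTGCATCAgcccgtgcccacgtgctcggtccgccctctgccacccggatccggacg
The HERPUD1 element reads as its reverse complement. A sterol element, TCACNCCAC, was in 5 of the 250 promoters (2.00%, against 0.875% of all), and the aryl hydrocarbon receptor core GCGTG in 103 (41.2%, against 31.9%). By call, GCGTG was in 38.7% of matched genes called higher, 20.8% of those called lower and 50.6% of those not called.

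The listed chemokines, cytokines and other targets of NF-κB, the transcription factor of inflammatory signalling, rose together. Of 28 listed genes, 9 were in both tables and all 9 were called higher, against 66.2% of the genes that ezetimibe raised, with a median difference of 1.43; with median-of-ratios scaling 6 were higher and 0 lower, with a median of 0.73. IL1A, the cytokine interleukin 1α, had 23.4, 8.26 and 18.1 with DMSO, 52.5, 43.2 and 37.9 with ezetimibe and 590, 537 and 607 with the combination. It was 13.0-fold over ezetimibe (3.68 ± 0.30, adjusted p = 2.6e-07). TRAF1, an adaptor of tumour necrosis factor receptors, had 36.0, 44.3 and 46.4 with ezetimibe and 434, 321 and 366 with the combination (3.11 ± 0.19, adjusted p = 2.51e-08). In both genes every combination library was far above every ezetimibe library. CXCL8, interleukin 8, had 316, 302 and 377 with DMSO, 1238, 1246 and 1175 with ezetimibe and 3965, 4158 and 4027 with the combination (1.73 ± 0.10, adjusted p = 1.86e-08). CXCL3, CCL20, CXCL2, CXCL5 and IL6 differed by 1.27 to 2.14. CXCL1 differed least, from 71.0, 61.7 and 96.7 to 157, 112 and 108 (0.71 ± 0.27, adjusted p = 0.0313), and was not called without combination replicate 1 (0.55, adjusted p = 0.117). CCL28, a chemokine on no list here, went the other way and was lower with the combination than with ezetimibe. Its difference was -1.96 without combination replicate 1 (adjusted p = 0.000191) and -2.94 with median-of-ratios scaling (adjusted p = 1.91e-05).

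Targets of NRF2, the regulator of the oxidative stress response, were mixed. Of 25 listed genes, 7 were in both tables, 4 were called higher and 0 lower, near the 53.2% higher among all 359 genes, with a median difference of 0.82 (0.12 with median-of-ratios scaling, 2 higher and 2 lower). HMOX1, haem oxygenase 1, rose from 150, 134 and 136 to 549, 396 and 470 (1.74 ± 0.16, adjusted p = 1.05e-06). OSGIN1, an oxidative stress-induced growth inhibitor, rose from 1476, 1570 and 1423 to 5225, 4064 and 4226 (1.59 ± 0.14). The aldo-keto reductases AKR1C1 and AKR1C3, which belong to a family of near-identical copies whose reads the counting could split, differed by 0.20 and -0.26 and were not called. Of 11 aryl hydrocarbon receptor targets 2 were in both tables. CYP1A1, a cytochrome P450, had 149, 145 and 147 with DMSO, 1395, 1457 and 1372 with ezetimibe and 2880, 2531 and 2511 with the combination (0.90 ± 0.10, adjusted p = 3.73e-06). TIPARP, a receptor target that feeds back on it, differed by 0.81. Neither was called with median-of-ratios scaling (0.21 and 0.11). CYP1A2 and AHRR, 2 more targets, were in the ezetimibe table but outside the combination table.

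Single members of other lists also rose. LAMP3, a lysosomal membrane protein, had 3.91, 1.84 and 4.27 with DMSO, 137, 189 and 137 with ezetimibe and 541, 518 and 463 with the combination (1.72 ± 0.25, adjusted p = 4.15e-05). WIPI1, a protein of autophagosome formation, rose from 207, 209 and 223 to 789, 712 and 775 (1.83 ± 0.14). These were the 2 genes of 30 on the autophagy and lysosome list that both tables hold. EPAS1, which encodes the hypoxia-inducible factor HIF-2α, rose from 219, 206 and 179 to 784, 988 and 1020 (2.20 ± 0.33, adjusted p = 6.68e-05), and the hypoxia-linked genes LOX and VEGFA differed by 0.79 and 0.72. EREG, an EGF receptor ligand, differed by 2.02. HRK, a BH3-only protein that promotes apoptosis, rose from 31.9, 40.1 and 35.1 to 149, 121 and 91.9 (1.71 ± 0.39, adjusted p = 0.00164). SESN2, KLF15 and ARRDC3, from the p53, immediate early and α-arrestin lists, were called higher at 0.86, 0.88 and 0.48; ARRDC3 became -0.22 with median-of-ratios scaling. PLIN4 and PLIN5, lipid droplet proteins and the 2 genes of the PPARα target list in both tables, out of 27, were not called, with differences of 0.11 and 0.47. No gene of the lists of S phase, fatty acid synthesis, heat shock, clock genes or the mitochondrial genome was in both tables.

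The 10 largest rises were taken among called protein-coding genes whose mean reached 50, and several of them were outside the stress lists. SLC30A2, a zinc transporter of vesicles, had 16.6, 14.7 and 3.20 with DMSO, 35.0, 30.9 and 32.2 with ezetimibe and 584, 537 and 526 with the combination, a 16.8-fold rise over ezetimibe (4.03 ± 0.41, adjusted p = 1.99e-06). DEPP1, a FOXO-regulated gene, rose from 69.9, 64.8 and 75.8 to 1034, 813 and 791 (3.62 ± 0.19). SLFN5, of the interferon-linked Schlafen family, rose from 252, 297 and 315 to 1505, 2408 and 2218 (2.80 ± 0.17). These 3 genes had little or moderate signal with ezetimibe and the groups were far apart. PEAR1, PARM1 and RAB39B differed by 3.17, 2.90 and 2.72. ZDBF2, an imprinted gene, rose from 64.8, 44.3 and 43.6 to 170, 627 and 525 (2.91 ± 0.41), and replicate 1 was again far below the other 2.

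**Figure D2:**
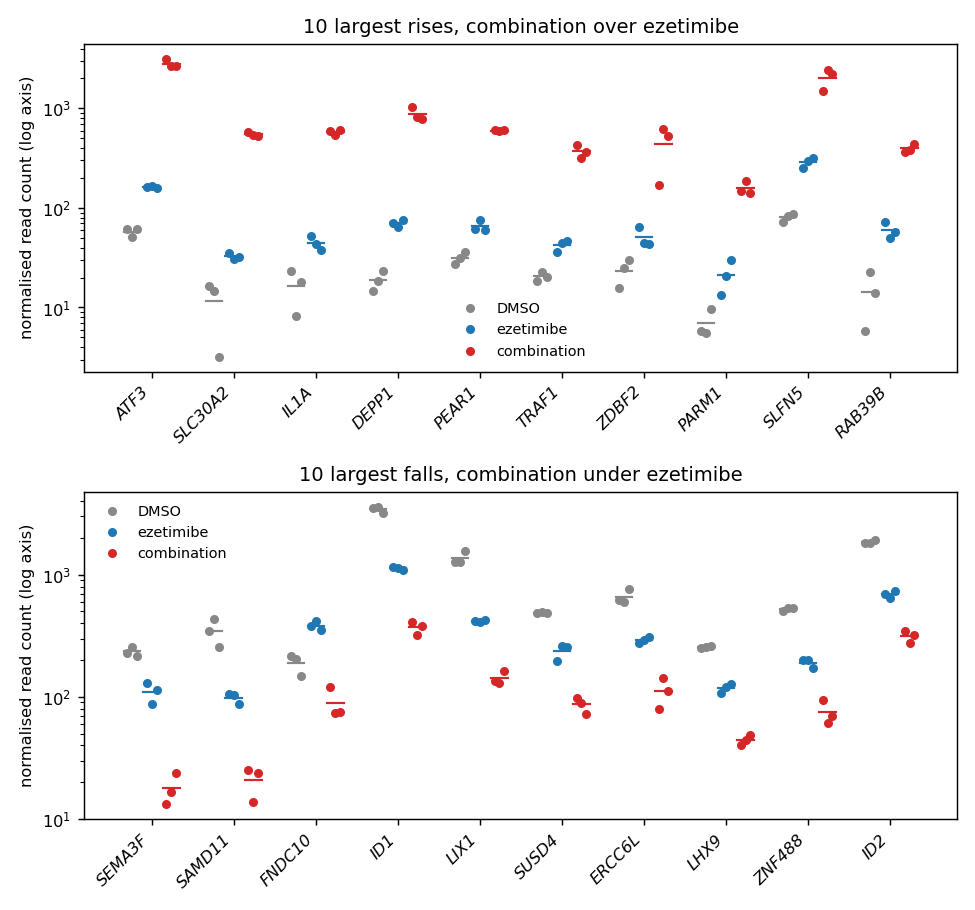
Normalised read counts (log axis) of the 10 protein-coding genes with the largest rises (upper panel) and the 10 with the largest falls (lower panel) from ezetimibe to the combination. Each point is a library, the bar is the mean of 3 (DMSO grey, ezetimibe blue, combination red), and genes were chosen so that combination and ezetimibe points do not overlap.

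Falls were fewer and included the ID genes, which encode inhibitors of DNA binding that hold back basic helix-loop-helix factors and are induced by BMP signalling. ID1 (chromosome 20, 31605283 to 31606515, plus strand, hg38) had 3488, 3605 and 3212 with DMSO, 1166, 1138 and 1101 with ezetimibe and 413, 320 and 381 with the combination. Ezetimibe was 3.06-fold over the combination (-1.62 ± 0.11, adjusted p = 5.95e-08), with no overlap. ID2 had 697, 649 and 733 with ezetimibe and 347, 276 and 321 with the combination (-1.14 ± 0.11, adjusted p = 1.4e-06). ID3 had 3174, 3546 and 2800 with DMSO, 646, 591 and 626 with ezetimibe and 579, 444 and 534 with the combination. Its combination libraries were all the lower ones, but the difference was -0.27 (95% interval -0.53 to 0.00, adjusted p = 0.0772), which became -0.35 and was called without combination replicate 1 (adjusted p = 0.0177). Of the 26 genes on the ID, BMP and Notch-linked list, 5 were in both tables, 3 called lower and 1 higher. Ezetimibe had lowered 4 of the 5, and among all genes that it lowered 48.6% were called lower. The third gene called lower, ATOH8, a BMP-induced factor, had 5.14, 11.3 and 5.69 with ezetimibe and 0, 1.85 and 4.79 with the combination (-1.65, adjusted p = 0.0333; -0.97 without combination replicate 1) and was not called when DMSO replicate 1 or 2, ezetimibe replicate 2 or combination replicate 1 was left out. The gene called higher was GATA3, a luminal breast transcription factor at low counts, with 58.6, 49.4 and 51.2 before and 92.1, 112 and 107 after (0.95 ± 0.26, adjusted p = 0.00577). ID4, also listed there, was in the ezetimibe table but outside the combination table.

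SEMA3F, a secreted guidance protein, fell most among the 10 named genes, from 231, 258 and 218 with DMSO to 131, 87.5 and 114 with ezetimibe and 13.2, 16.7 and 23.9 with the combination (-2.58 ± 0.23, adjusted p = 5.77e-07). SAMD11 had 105, 103 and 87.2 with ezetimibe and 25.2, 13.9 and 23.9 with the combination (-2.21 ± 0.25). LIX1, SUSD4, ERCC6L, LHX9 and ZNF488 fell by 1.55, 1.45, 1.42, 1.39 and 1.35 on the log2 scale. ERCC6L, a DNA translocase of mitotic chromosomes, is the one among these known for a role in mitosis, and LHX9 and ZNF488 are transcription factors.

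FNDC10, a fibronectin type III domain gene, was the only gene called on the other side of DMSO. It had 218, 203 and 148 with DMSO, 377, 421 and 352 with ezetimibe and 121, 73.2 and 75.7 with the combination (-2.12 ± 0.21, adjusted p = 1.34e-06). Ezetimibe was above DMSO in every library and the combination below it in every library. LINC02535, a non-coding RNA, was the only gene called back towards DMSO. It had 31.3, 34.0 and 29.9, then 3.09, 6.17 and 10.4, then 15.3, 14.8 and 10.5 (1.05 ± 0.40, adjusted p = 0.0364). Its lowest combination library was only just above the highest ezetimibe library, and the call was lost without combination replicate 1 (0.96, adjusted p = 0.0867) and with median-of-ratios scaling (0.41, adjusted p = 0.399).

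Listed mitotic genes, which ezetimibe had lowered, were mostly not called different when fenofibrate was added. ERCC6L (-1.425) and SPC25, a kinetochore gene, were on no list here and were called lower. Without combination replicate 1, SPC25 differed by -0.98. NCAPG, a condensin gene also off the lists, differed by -0.05 without that library (adjusted p = 0.637). Of 62 genes of the G2/M and mitosis list, 14 were in both tables, 2 were called lower and 12 were not called, with a median difference of -0.21. Ezetimibe had lowered all 14, and 48.6% of all genes that it lowered were called lower. With median-of-ratios scaling, which moved the median of all 359 genes by -0.68, all 14 were called lower, with a median of -0.90. The smallness of these differences thus depends on the scale. Another 13 list genes, among them AURKA, PLK1, BUB1 and NDC80, were in the ezetimibe table but outside the combination table, all lower than DMSO, and 13 others were lower than DMSO in the combination table and outside the ezetimibe table. AURKA, a spindle kinase, for example, averaged 2551 with DMSO and 1069 with ezetimibe.

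TOP2A, the topoisomerase that untangles chromosomes, had 9815, 8827 and 10468 with DMSO, 3917, 4099 and 4266 with ezetimibe and 2067, 3397 and 3156 with the combination (-0.54 ± 0.15, adjusted p = 0.00593). Replicate 1 was far lower than the other 2, and without it the difference was -0.32 (adjusted p = 0.00238). FAM83D, a spindle protein, had 823, 873 and 801 with ezetimibe and 746, 679 and 691 with the combination (-0.24 ± 0.09, adjusted p = 0.0381). TTK, the checkpoint kinase MPS1, had 463, 497 and 472 with ezetimibe and 483, 497 and 451 with the combination, with overlapping libraries and a 95% interval of -0.29 to 0.29 (adjusted p = 0.992). CENPE, a kinetochore motor, had 577, 504 and 558 with ezetimibe and 279, 802 and 576 with the combination, so that its interval ran from -0.71 to 0.49, and its difference turned from -0.11 to 0.32 without replicate 1. In 8 of the 14 genes combination replicate 1 was the lowest of its group, and these 8 had a median length of 6230 bases against 3271 for the others. Without that library the median was -0.02 and 3 genes were called lower, with CCNF, a cyclin of the ubiquitin system, as the third (-0.38, adjusted p = 0.00125).

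**Figure D3:**
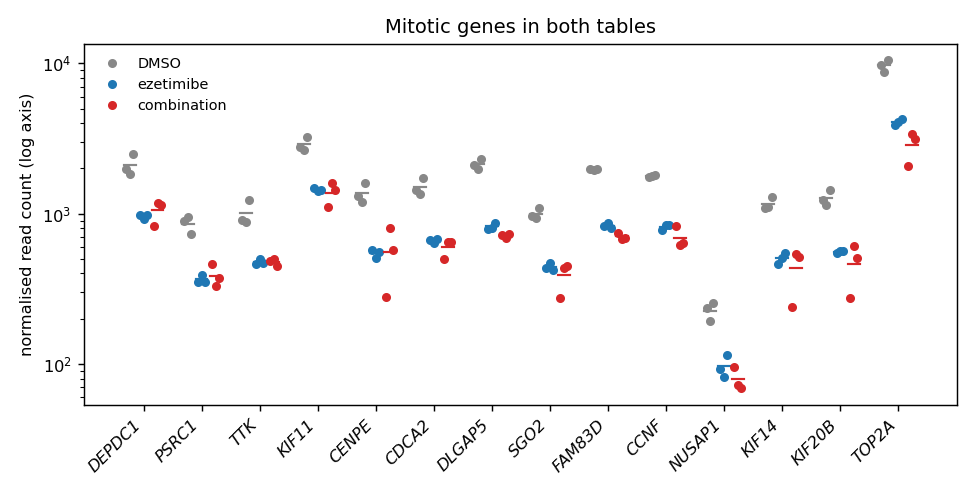
Normalised read counts (log axis) of the 14 listed mitotic genes in both tables, each point a library and each bar the mean of 3 (DMSO grey, ezetimibe blue, combination red). Ezetimibe and combination both lie below DMSO, and the combination points overlap with or lie just under ezetimibe, with a single low combination point (replicate 1) in several genes.

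The cell cycle homology region, TTTGAA on either strand, is the site through which the DREAM complex and B-MYB act on mitotic genes. It was in 3704 of 27305 RefSeq promoters (13.6%) and in 25 of the 250 matched here (10.0%). Of the 11 matched genes on the mitosis list, 5 held it (DEPDC1, KIF11, DLGAP5, CCNF and TOP2A). By call, 4 of 137 matched genes called higher held it (2.92%), as did 7 of 24 called lower (29.2%) and 14 of 89 not called (15.7%). TOP2A, which was called lower, and DLGAP5, a spindle protein that was not (-0.20, 95% interval -0.41 to 0.01), are shown because both hold it 2 times within 100 bases, in capitals, as the letters or as their reverse complement. They lie at chr17:40418002-40418101 and chr14:55191679-55191778, both on the minus strand of GRCh38.p14, from RefSeq.
TOP2A: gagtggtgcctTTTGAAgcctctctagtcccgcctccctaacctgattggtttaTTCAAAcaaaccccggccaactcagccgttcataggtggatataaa
DLGAP5: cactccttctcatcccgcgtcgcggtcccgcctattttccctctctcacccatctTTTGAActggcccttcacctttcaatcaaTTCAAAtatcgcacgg

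Of 30 listed genes of cholesterol synthesis and transport, 8 were higher than DMSO in the ezetimibe table; 2 of these were in both tables, and 1 was called higher with the combination than with ezetimibe. CYP51A1, a demethylase of the pathway, had 210, 251 and 228 with ezetimibe and 122, 283 and 245 with the combination, with an interval of -0.75 to 0.41. Its difference of -0.17 became 0.20 without combination replicate 1 and -0.86, called lower, with median-of-ratios scaling (adjusted p = 0.0147). STARD4, a sterol carrier, was called higher, from 392, 337 and 333 to 458, 684 and 666 (0.75 ± 0.17, adjusted p = 0.0014; 0.05 with median-of-ratios scaling). The other 6 list genes were higher than DMSO with ezetimibe and outside the combination table: FDFT1, MSMO1, DHCR7, INSIG1, SREBF2 and NPC1L1, the transporter that ezetimibe blocks. All 6 were also in the fenofibrate table. The combination table alone listed 2 more genes of the list as higher and 3 as lower than DMSO. INSIG1, a sensor that holds back SREBP processing, averaged 365 with DMSO and 906 with ezetimibe on the scale of the ezetimibe table. FDFT1, squalene synthase, averaged 804 and 1742, and NPC1L1 averaged 12.5 and 37.6. Their values with the combination were not analysed here.

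**Figure D4:**
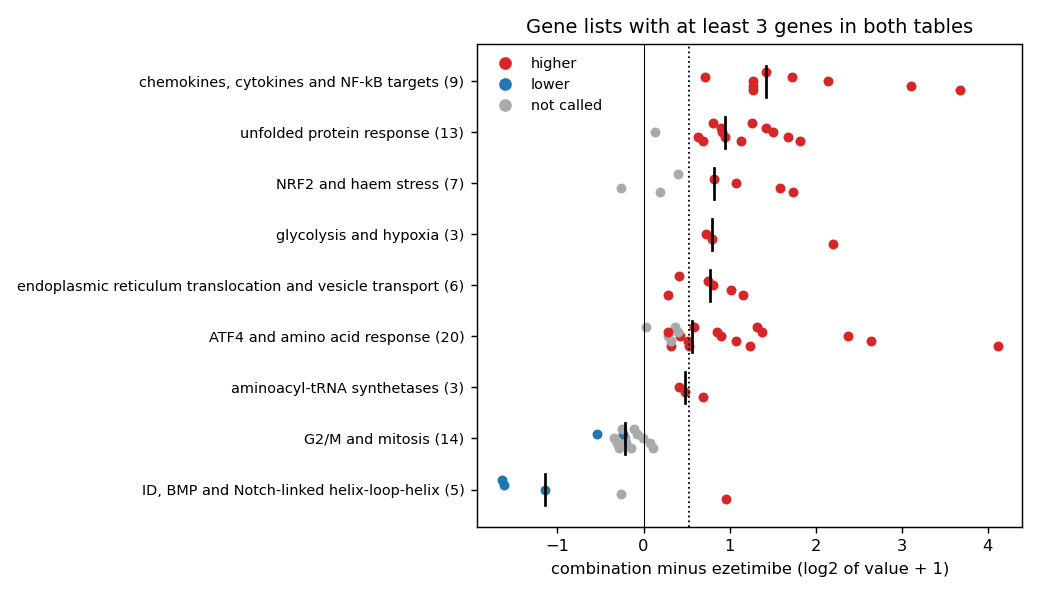
Log2 difference between combination and ezetimibe (horizontal axis) for each gene of the 9 lists with at least 3 genes in both tables, coloured by call (red higher, blue lower, grey not called). The vertical bar is the list's median and the dotted line the median of all 359 genes (0.53); the chemokine list has the highest median (1.43) and the ID list the lowest (-1.14).

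For the 49 genes in all 3 tables, what fenofibrate did on top of ezetimibe was set beside what it did alone. On top of ezetimibe 36 were called higher, 2 lower (CALB1 and PCDH17) and 11 were not called. Among all 359 genes 53.2% were called higher, and among those that ezetimibe raised 66.2%. All 49 had to pass the listing threshold in each table, and with fenofibrate alone 46 were higher than DMSO and 3 lower. The median log2 difference was 0.81 for the combination over ezetimibe and 1.23 for fenofibrate over DMSO, and 45 genes had the same direction in both. Of these, 14 differed by more on top of ezetimibe than alone. ATF3 differed by 4.11 on ezetimibe and by 1.23 alone. GDF15 differed by 2.64 and 1.41, and DDIT3 by 2.37 and 1.15. The reverse order was seen in NUPR1, with 1.37 on ezetimibe and 2.79 alone, and in KLHDC7B, a kelch-domain gene, with 1.63 and 3.53. CENPE differed by -0.11 on ezetimibe and -1.17 alone. HMOX1 differed by 1.74 and 1.67. These pairs of values were not tested against each other, and the count of 14 holds on the authors' scale. With median-of-ratios scaling the value on ezetimibe became 3.42 in ATF3, 1.95 in GDF15, 1.68 in DDIT3 and 1.04 in HMOX1. The values with fenofibrate alone were not rescaled that way.

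**Figure D5:**
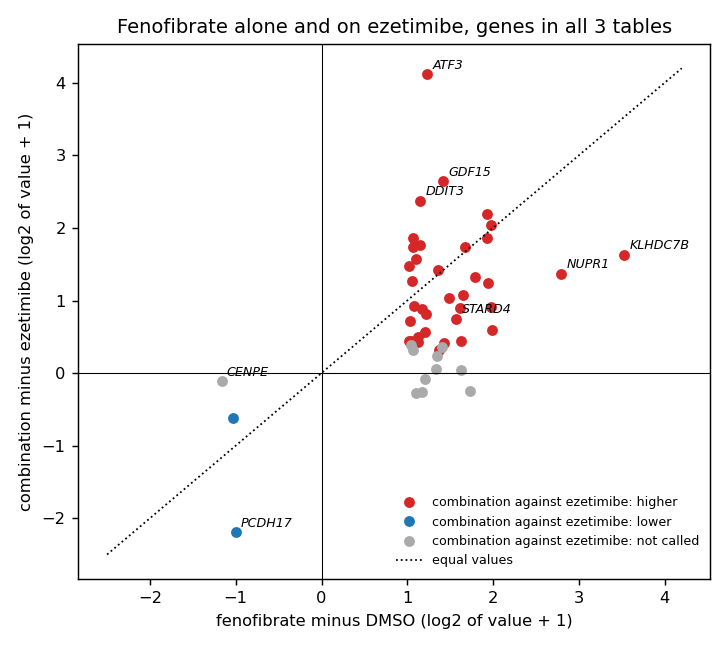
Log2 difference of fenofibrate over DMSO (horizontal axis) against that of the combination over ezetimibe (vertical axis) for the 49 genes in all 3 tables, coloured by call in the second comparison. Both differences are on the authors' scale, and on the dotted line they are equal. ATF3, GDF15 and DDIT3 lie above that line, and NUPR1 and KLHDC7B lie to its right.

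For genes that were not called, the precision varied. Of the 132, 38 had a 95% interval within 1.5-fold either way, and 37 of those had a mean of at least 50. At that mean, the 6 protein-coding genes nearest to 0 were TTK, LRRC37A3, CHPF, ATP6AP1L, PYCR1 and FADS3. FADS3, of the fatty acid desaturase family, had 2352, 2501 and 2311 with ezetimibe and 2660, 2118 and 2243 with the combination, with an interval of -0.26 to 0.19. CHPF, an enzyme of chondroitin synthesis, had 7230, 7824 and 7419 with ezetimibe and 8843, 6779 and 7273 with the combination, with an interval of -0.24 to 0.27. FADS3 was 2.90-fold over DMSO with ezetimibe and 2.85-fold with the combination, and CHPF 2.09-fold and 2.13-fold.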

How the data were processed

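Per the submitters' processing notes, fastp, HISAT2 2.0.5, featureCounts 1.5.0-p3 and hg38 were used; the roles of the tools, the strand setting and the tool behind the authors' tests are not given in the sources used here. The deposited tables hold, per the file headers, a signal for each of 6 libraries with a log2 fold change and p-value per gene, each made by the authors against the same DMSO libraries. Each deposited signal column held whole multiples of 1 step (100% of values within 0.001), as read counts scaled by a factor per library would. The authors' p-values and log2 fold changes, as deposited, served to define the listed genes and as an alternative without a test.

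Genes were joined by identifier, and the ezetimibe table was multiplied by 0.997, the mean ratio of the shared DMSO columns (1.03 for the fenofibrate table). Limma 3.58.1 with trend, in R 4.3.3, was fitted to log2 of the value plus 1 in the 9 DMSO, ezetimibe and combination libraries, which share one spread, with a 2-sided test of combination minus ezetimibe, Benjamini-Hochberg adjustment over 359 genes and a threshold of 0.05. The added 1 draws differences of low genes towards 0. No exact permutation test is given, since 3 against 3 cannot go below 0.1. The total depth of the libraries is unknown. The fit was tested on simulated data.

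Named genes were the 10 largest rises and 10 largest falls without overlap (protein-coding, called, mean of at least 50), up to 4 genes per list, genes across DMSO and the 6 nearest 0; others were chosen after their values were seen. The members and lists were chosen with earlier results of these data known. All 359 positions equal those of GENCODE 29. Promoters were matched by symbol to RefSeq (250 of 359). Alternatives were other pseudocounts, filters, scales, thresholds, libraries and a replicate block. Results for some genes are not reported here, and those genes are left out of the lists.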

Additional observations from a re-analysis of the deposited data

How the results depend on the processing

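The counts of 191 higher and 36 lower genes stayed within 1.5 times, with the directions of all 227 called genes, under pseudocounts of 0.5 and 5, without rescaling between the tables, at an adjusted p under 0.01 and with only the ezetimibe and combination libraries (201 and 34). Leaving out each library in turn gave 174 to 199 higher and 33 to 41 lower. Restricted to genes with a mean of at least 50, 16 were lower. With an absolute log2 difference above 1 as a further condition, 115 were higher and 144 were called in all. Median-of-ratios factors from the 359 genes gave 86 higher and 111 lower, 43.7% of the calls higher against 84.1%; these factors assume that most of these genes did not differ. On that scale PLIN4 became -0.58, AARS -0.011, SARS -0.21, WARS -0.28, ARRDC3 -0.22, SLC33A1 -0.47, CHPF -0.68 and PYCR1 -0.66; the other described genes that turned there are EIF2AK3, SLC6A9, SLC1A4, PCK2, INHBE (-0.10) and CEBPB (-0.17), and, not called on the authors' scale, SLC7A11, ALDH1L2, ASNS, CHAC1, AKR1C1, EDEM2, DEPDC1 and PLIN5. The replicate numbers were not found to pair the samples (correlations of 0.04, 0.08 and 0.01 between same-numbered ezetimibe and combination libraries); a replicate block gave 190 higher and 35 lower, 222 of the 227 calls among them. FOXJ1, a cilia factor at low counts, was called lower without ezetimibe replicate 3 or combination replicate 1, and KIF20B without combination replicate 2 (-0.57). The alternatives that need whole read counts (2 count models and trimmed-mean scaling) were not run. Of the 76 genes with a mean under 50, 49 were not called.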

Other observations

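By the family column of the authors' deposited tables, 21 of the 359 genes encode transcription factors. Of these, 11 were called higher with the combination than with ezetimibe, 6 lower and 4 were not called. The share of higher genes is close to the 53.2% of all 359, and that of lower genes is above the 10.0% of all 359. Besides ATF3, DDIT3, EPAS1, BHLHA15, XBP1, CEBPB, KLF15 and GATA3, the higher ones were MXD1, which competes with MYC for MAX (1.93), NFIL3, a basic leucine zipper repressor (1.91), and PRDM13 (0.97). With median-of-ratios scaling XBP1, KLF15, GATA3 and PRDM13 were not called, and CEBPB was -0.17. The lower ones were ID1, ID2, ATOH8, LHX9, HMX2 and ZNF488.

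Of 9 transcribed unprocessed pseudogenes in both tables, 8 were called higher and 1 lower. The shares among all 359 genes were 53.2% higher and 10.0% lower, for these and for the RNA classes below. The largest difference was that of NMRAL2P (2.79), and ZDHHC8P1 was the lower one (-1.62). Reads of such copies can be shared with their parent genes, so these values are uncertain. Of 15 long intergenic RNAs, 5 were higher, 2 lower and 8 not called, and of 11 antisense RNAs 3 were higher and 8 not called; without a stated strand setting an antisense RNA and its partner cannot be told apart.

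Some genes with a mean below 50 fell deeply. A deep fall itself lowers the mean over the ezetimibe and combination libraries, so falls below that mean are deep partly by selection. METTL7A, a lipid droplet and endoplasmic reticulum methyltransferase, had 69.9, 85.4 and 79.6 with ezetimibe and 14.2, 11.1 and 10.5 with the combination (-2.62), and WDR72 had 82.3, 81.3 and 75.8 and then 11.0, 15.8 and 7.66 (-2.75). Both genes were chosen after their values were seen.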
